A study of Bos taurus with 14 samples.

Results

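The miRNAs described here are those of the imprinted DLK1-DIO3 region, measured by small RNA sequencing of PWBC (peripheral white blood cells) from 14 beef heifers. They were taken from the deposited count table by name. A mature miRNA belonged to the set when its number was 1 of 40 that are known for this region, with any letter or arm suffix, and 57 of the 1030 mature miRNA names in the table did. All heifers were Angus-Simmental crossbreds that were bled at weaning, and they were later inseminated under the same synchronization protocol. The fertile group (FH) held 7 heifers that became pregnant to AI (artificial insemination). The subfertile group (SFH) held 7 heifers that were not pregnant after AI and a natural service season. Each library came from a different heifer, no treatment separated the groups, and the outcome was recorded long after the blood was drawn. PWBC are a mixture of leukocytes, so that fewer cells of a type and less miRNA per cell cannot be told apart.

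The region between DLK1, a membrane protein that holds back the differentiation of fat and other cells, and DIO3, the deiodinase that inactivates thyroid hormone, is imprinted in mammals. The protein-coding genes DLK1, RTL1 and DIO3 are expressed mainly from the chromosome inherited from the sire. The long non-coding RNAs MEG3, MEG8 and MEG9, arrays of snoRNAs and a very large group of miRNAs are expressed from the chromosome inherited from the dam. These miRNAs are known for high levels in brain, embryo and placenta. A group of them, among which are miR-127, miR-136, miR-431, miR-432 and miR-433, is transcribed antisense to RTL1, a gene needed for placental development, and can target its mRNA. The larger group starts with miR-379 and miR-411 and ends near MEG9.

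The place of each miRNA was looked up in RefSeq for ARS-UCD2.0, a later assembly than the ARS-UCD1.2 genome used by the authors, so only the order and neighbours of the genes are given. All 57 names matched a precursor gene, and 56 of them lay between DLK1 and DIO3. The exception was bta-miR-544b, whose 2 genes lay on other chromosomes and which had no count in any heifer. RefSeq lists 59 miRNA genes between DLK1 and DIO3, and 63 names of the count table belong to them. The 7 of these names that the number rule leaves out were almost silent as well, since 6 of them had no count and bta-miR-3956 had 11 counts in 1 heifer, SFH heifer 21. In gene order, 7 names lay between MEG3 and MIR370 (miR-493, miR-665, miR-431, miR-433, miR-127, miR-432 and miR-136), miR-370 lay within MEG8, and 48 lay from MIR379 to MIR656.

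Library totals on mature miRNAs were 1754971 to 5468341 counts per heifer. Leukocyte miRNAs (miR-142, miR-150, miR-223, miR-342, miR-155 and miR-146) summed to 115303 ± 22362 CPM (edgeR's depth-scaled count unit, here relative to the total of the 341 miRNAs retained) in FH, and the SFH sum was 121106 ± 31027 CPM (mean ± SD of 7 heifers, as for every ± value that follows), and all 8 of their names had counts.

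The miRNAs of the region were close to the limit of detection. They took 2007 counts in all heifers together, or 46.6 CPM over all libraries pooled. Of the 57 names, 34 had no count in any heifer, 6 had counts in 1 heifer, 9 in 2 to 6 heifers and 8 in 7 or more, and none had counts in all 14. At least 1 count was present for 40.4% of the 57 names, compared with 60.7% of the other names in the table. Where a heifer showed 0 counts, up to 3 could have been missed, equal to 0.549 to 1.71 CPM by library, and a count of 0 over all heifers leaves room for up to 0.0697 CPM. Such limits refer to counting error alone, as no step to remove PCR copies was described. For the silent names the data therefore set an upper limit and do not show absence.

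**Figure D1:**
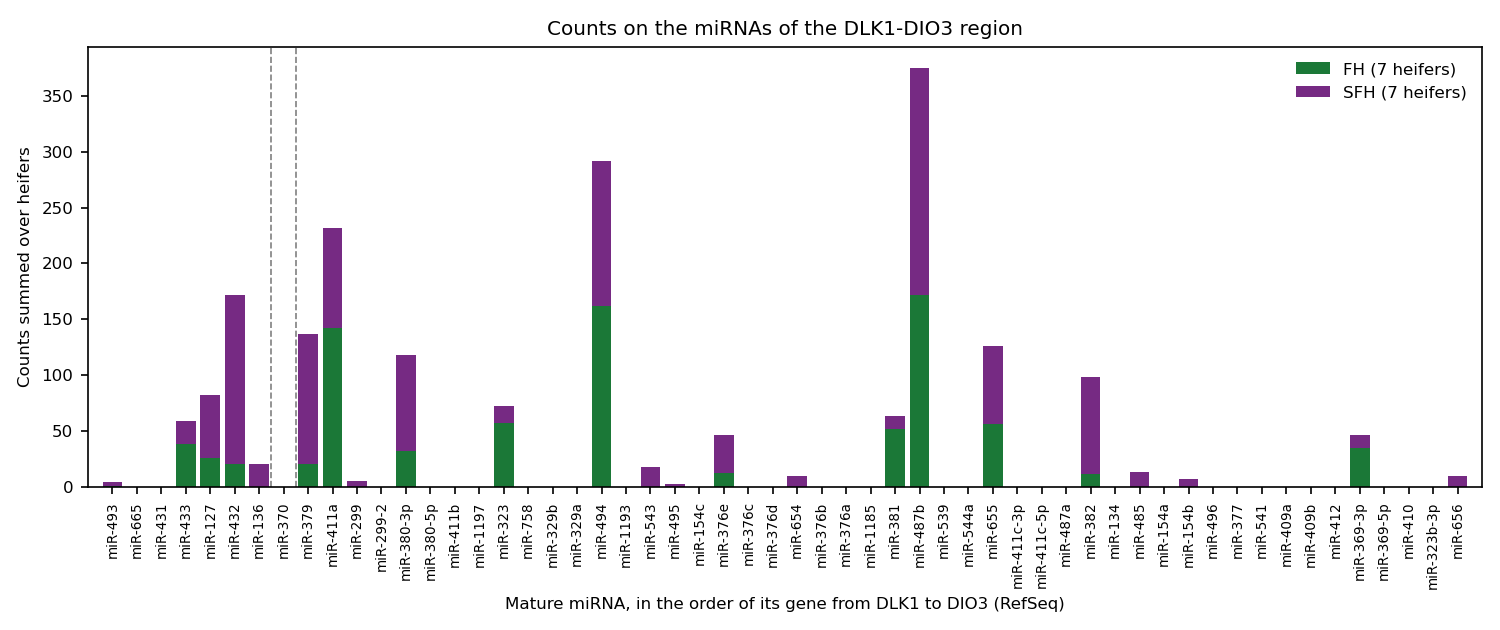
Bars give the counts of each miRNA summed over the heifers, split into FH and SFH, with the miRNAs on the x axis in the order of their genes from DLK1 to DIO3 and dashed lines on both sides of miR-370. Counts fell on scattered members of both groups of genes, with the highest bars for miR-487b (375 counts), miR-494 (292 counts) and miR-411a (232 counts), and 33 of the 56 names drawn have none.

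Detected miRNAs were spread along the whole region, some beside each other, such as miR-433, miR-127, miR-432 and miR-136, and others between silent neighbours, such as miR-494. In the group near RTL1, 5 of the 7 names had counts, with 337 counts in total. bta-miR-432 led this group with 172 counts in 7 heifers, followed by bta-miR-127 with 82 counts in 7 heifers, bta-miR-433 with 59 counts in 2 heifers, bta-miR-136 with 20 counts in 2 heifers and bta-miR-493 with 4 counts in 2 heifers. bta-miR-431 and bta-miR-665 of the same group had none, and neither had bta-miR-370.

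From MIR379 to MIR656, 18 of the 48 names had counts, with 1670 counts in total. bta-miR-487b was seen in 13 heifers, bta-miR-411a in 10, bta-miR-494 in 9, bta-miR-379 in 8, bta-miR-380-3p in 7 and bta-miR-382 in 7. Members that are well known from brain, such as bta-miR-134 and bta-miR-329a, were at 0 in every heifer. So were bta-miR-410, bta-miR-409a, bta-miR-376a, bta-miR-376b and bta-miR-376c. The table names both arms of the hairpins of miR-380, miR-369 and miR-411c, and in none of them were both arms seen. bta-miR-380-3p had 118 counts and bta-miR-380-5p had 0, and bta-miR-369-3p had 46 counts and bta-miR-369-5p had 0, while neither arm of bta-miR-411c had any.

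Several of these miRNAs have close relatives within the region, and the value of 1 relative is uncertain where reads could be counted on another. In the families listed next, the counts were nevertheless placed on 1 relative. bta-miR-487b had 375 counts and bta-miR-487a had 0. bta-miR-411a had 232 counts, while bta-miR-411b and both arms of bta-miR-411c had 0. bta-miR-376e had 46 counts and the other 4 miR-376 names had 0. bta-miR-154b had 7 counts, and bta-miR-154a and bta-miR-154c had 0. In RefSeq, MIR382 overlaps MIR3578, and MIR299 overlaps MIR299-2, so reads of these pairs cannot be assigned with certainty either. bta-miR-3578 and bta-miR-299-2 had 0 counts. MIR409A and MIR409B also overlap, and bta-miR-409a and bta-miR-409b both had 0 counts, as did the relatives bta-miR-329a and bta-miR-329b.

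The miRNAs named for the annotated genes nearest to the region had counts. bta-miR-10172-3p, before DLK1, had 38.2 ± 29.9 CPM in FH, compared with 47.3 ± 17.7 CPM in SFH, and was counted in all 14 heifers. The other arm, bta-miR-10172-5p, was counted in 10 heifers and had 7.68 ± 12.8 CPM in FH, compared with 21.2 ± 15.3 CPM in SFH. bta-miR-2284k, after DIO3, had 2.77 ± 0.703 CPM in FH, compared with 3.53 ± 1.52 CPM in SFH, and was also counted in all 14. Its value is uncertain where reads of relatives elsewhere, such as bta-miR-2284v, could be counted on it. Of the imprinted miRNAs, 0 of 57 were counted in all 14 heifers, although bta-miR-487b had more counts in total than bta-miR-2284k (136 counts). These neighbours were chosen after their values were seen.

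Counts of the region were uneven from heifer to heifer. The 23 detected names gave 102 values above 0, of which 67 were 10 counts or more and only 12 were 1 to 3 counts. bta-miR-432 had 88 counts in SFH heifer 30 and no count in 7 heifers. bta-miR-655 had 56 counts in FH heifer 25, 40 in SFH heifer 28, 22 in SFH heifer 26, 8 in SFH heifer 17 and none in the other 10 heifers. bta-miR-381 had 40 counts in FH heifer 20, 12 in FH heifer 24, 7 in SFH heifer 28, 4 in SFH heifer 17 and none elsewhere. For the 10 miRNAs of the region with the highest mean CPM, the variance of the counts was 11.99 to 43.4 times their mean, where counting error at equal depth would give values near 1. This pattern is shared by other rare miRNAs. Among the 316 other names whose counts in total did not exceed those of bta-miR-487b, 61.7% of the values above 0 were 10 counts or more, compared with 65.7% for the region.

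**Figure D2:**
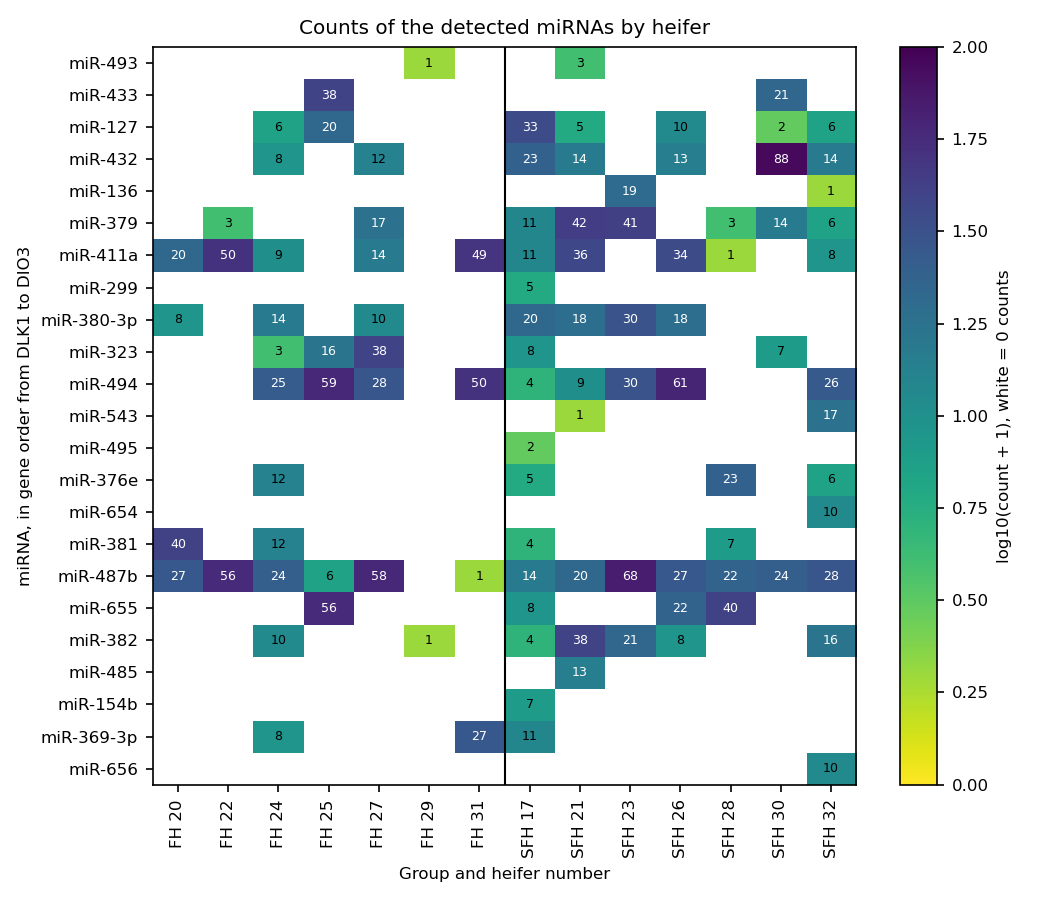
Each cell is the raw count of 1 of the 23 detected miRNAs (rows, in gene order from DLK1 to DIO3) in 1 heifer (columns, FH to the left of the line and SFH to the right), coloured by log10(count + 1) and white at 0 counts. FH heifer 29 has 1 count each of miR-493 and miR-382 and nothing else, whereas SFH heifer 17 has counts of 16 miRNAs.

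The question the design asks of this region is whether heifers that later failed to become pregnant already differed in its miRNAs at weaning. More of the miRNAs were seen in SFH heifers. The number with at least 1 count was 2 to 11 per FH heifer (median 4) and 6 to 16 per SFH heifer (median 8), or 5.29 ± 3.04 and 9.29 ± 3.86 (SD, n = 7 per group). All 7 SFH heifers lay above the FH median, but the groups overlapped, as FH heifer 24 had 11 and FH heifer 27 had 7. The difference of the means (SFH minus FH) was 4 miRNAs, slightly above the spread within groups, and no test was made on a score over miRNAs that were selected with results of these heifers known.

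Library totals were 1754971 to 5468341 counts in FH and 1831960 to 3958469 counts in SFH. Thinned to the lowest total of any heifer, the expected numbers were 5.03 ± 3.31 in FH and 9.10 ± 3.95 in SFH, a difference of 4.07. Whether other properties of the libraries had a part in it was not tested. The whole table, which includes the region, moved in the same direction, with 348 ± 45.2 miRNAs detected in FH heifers and 383 ± 34.1 in SFH heifers. As a share of all miRNAs detected in a heifer, the region made up 1.46 ± 0.687% for FH, compared with 2.38 ± 0.827% for SFH.

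Counted by miRNA, 17 of the 23 detected names were seen in more SFH than FH heifers, 2 (bta-miR-323 and bta-miR-369-3p) in more FH heifers, and 4 in equal numbers. Among the other 316 names with no more counts in total than bta-miR-487b, 174 were seen in more SFH heifers, 80 in more FH heifers and 62 in equal numbers. Where the numbers were unequal, SFH was thus ahead for 89.5% of the names of the region and for 68.5% of these other names. No name of the region had counts in FH heifers only. Counts in SFH heifers only were found for 8 names (bta-miR-136, bta-miR-543, bta-miR-485, bta-miR-654, bta-miR-656, bta-miR-154b, bta-miR-299 and bta-miR-495). These 8 names had 2 to 20 counts each and 85 in total, all of them in 4 heifers, and 6 of the 8 were seen in 1 heifer only. The 8 SFH-only names made up 34.8% of the 23, whereas of the other 316 names 81 (25.6%) had counts in SFH only and 42 (13.3%) in FH only. Among names with at most 20 counts in total, SFH-only names were 8 of 9 in the region. Elsewhere 62 of 112 such names (55.4%) were SFH-only and 26 (23.2%) FH-only. The limit of 20 was the highest total among the 8 SFH-only names, so all 8 lay within it by construction, and nothing is concluded from the 8 of 9. The difference between the shares of the region and of the other names was not tested.

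The summed level of the 57 names was 0.444 to 74.7 CPM in FH (median 41.2) and 31.2 to 87.2 CPM in SFH (median 74.2). The FH mean was 41.3 ± 23.1 CPM and the SFH mean 65.0 ± 21.3 CPM (SD, n = 7 per group). The SFH mean was 23.8 CPM higher, about the size of the spread within a group. SFH heifers 28 and 30 had 31.2 and 39.4 CPM and lay below the FH median, while FH heifer 24, with 74.7 CPM, lay above the SFH median. On the log2(CPM + 0.5) scale the difference was 1.21. It fell to 0.41 when FH heifer 29 was left out, which put the FH mean at 48.1 CPM. That heifer had 2 counts of the region in a library of 4506020 counts, or 0.444 CPM (95% exact binomial interval 0.0538 to 1.60 CPM), whereas the other 13 heifers had 95 to 209 counts each.

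**Figure D3:**
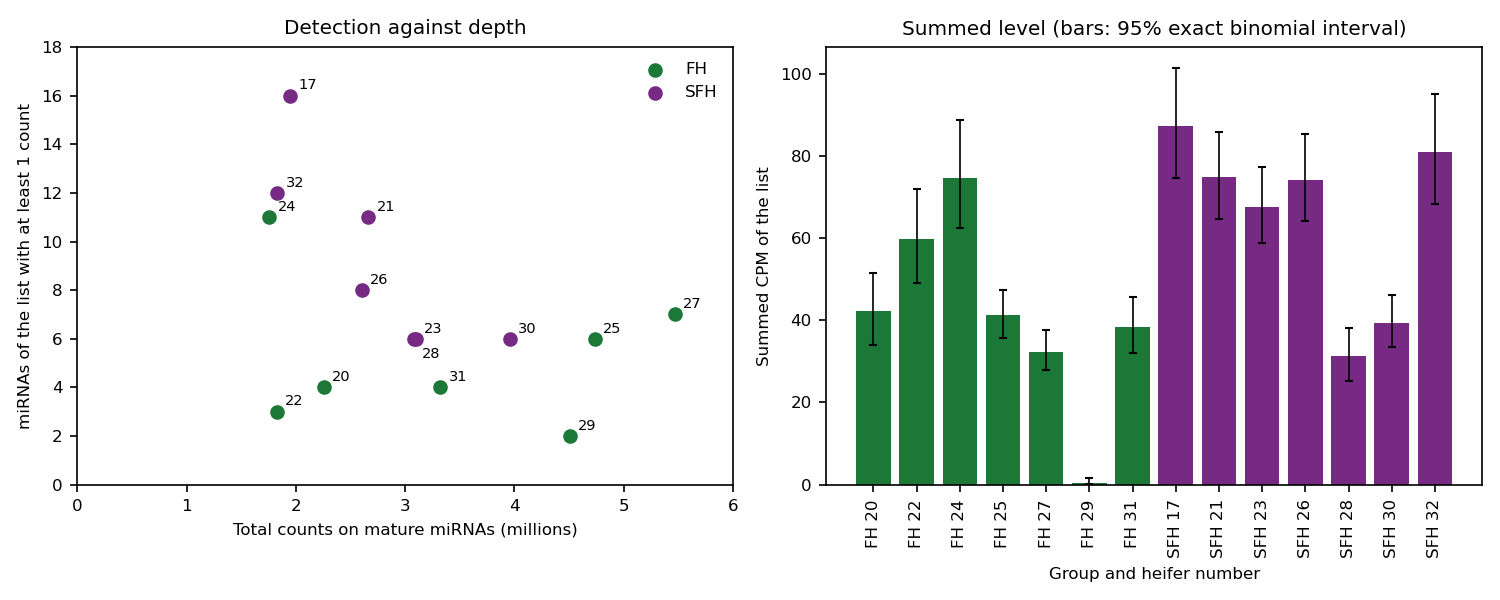
The left panel plots the number of miRNAs of the region with at least 1 count against the total counts of the library, with a point for each heifer and its number beside it, and the right panel gives the summed CPM of the region per heifer with 95% exact binomial intervals that cover counting error only. SFH heifers 17 and 32 sit highest on the left, followed by SFH heifer 21 and FH heifer 24 at 11 miRNAs each, although their libraries are not the deepest. FH heifer 29 is close to 0 on the right while the other heifers lie between 31.2 and 87.2 CPM.

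Both groups of genes contributed. The miRNAs between MEG3 and MIR370 summed to 3.24 ± 4.92 CPM in FH, with 3 of the 7 heifers at 0, and to 13.1 ± 11.05 CPM in SFH, with 1 heifer at 0. Those from MIR379 to MIR656 summed to 38.0 ± 21.9 CPM for FH heifers, compared with 51.9 ± 22.0 CPM for SFH heifers. The ranges overlapped for both, at 0 to 12.3 CPM and 0 to 28.7 CPM near RTL1 and at 0.222 to 66.7 CPM and 11.4 to 69.4 CPM for the larger group.

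Markers of tissues in which such miRNAs could also be present were read in the same libraries. Stromal miRNAs (miR-143, miR-145, miR-199 and miR-214) summed to 180 to 340 CPM in FH and 189 to 593 CPM in SFH, and all 7 of their names had counts. Muscle miRNAs summed to 0 to 86.0 CPM in FH and 0.650 to 283 CPM in SFH, with 4 of 7 names counted and bta-miR-133c, bta-miR-208a and bta-miR-208b at 0. Endothelial and platelet miR-126, in both its names, summed to 22.4 to 68.3 CPM in FH and 4.52 to 47.0 CPM in SFH. Neural miR-9 and miR-124 summed to 59.0 to 552 CPM in FH and 126 to 337 CPM in SFH, with all 4 names counted. Erythroid miRNAs summed to 1574 to 3713 CPM in FH and 1463 to 9236 CPM in SFH, with bta-miR-144 at 0. The epithelial list summed to 149 to 249 CPM in FH and 55.9 to 235 CPM in SFH, with bta-miR-429 at 0, and miR-122 of liver to at most 4.65 CPM in FH and 2.31 CPM in SFH. No miRNA of the 8 lists passed the thresholds given next, which 3.81% of all miRNAs tested passed. Only 4 of 7 stromal, 1 of 7 muscle, 1 of 6 epithelial, 2 of 4 neural, 2 of 3 erythroid and 0 of 1 liver names could be tested. With so few tested, a count of 0 is close to that share and is no result about these markers. The part of such cells in the levels of the region was not tested.

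Differential expression was tested on the 341 miRNAs that reached a CPM of 1 in 7 or more heifers, and 6 of the 57 names were among them. They ranked 266th to 332nd by mean CPM. The thresholds were an unadjusted p of at most 0.05 and a log2 fold change of 0.5 or more in either direction. By the quasi-likelihood test of edgeR 0 of the 6 passed both, where 13 of the 341 miRNAs (3.81%) did, 1.47% as higher and 2.35% as lower in SFH. By the p-value alone the numbers in edgeR were 0 of the 6 and 20 of the 341 (5.87%). With both thresholds, DESeq2 called 0 of the 6 and 4.69% of the 341, and limma-voom called 1 of the 6 (bta-miR-379, higher in SFH) and 6.74% of the 341, with 4.4% as higher in SFH. After adjustment edgeR called 0 of the 341. The log2 fold change was above 0 for 5 of the 6 and for 188 of the 341, with medians of 0.72 and 0.06. The standard errors were wide, with a median of 1.42 for the 6 miRNAs and 0.48 for all tested, and the smallest adjusted p-value of the 6 was 0.863 (Benjamini-Hochberg over the 341).

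bta-miR-379, the miRNA with which the larger group of genes begins, had the largest absolute log2 fold change of the 341 miRNAs tested. In FH the lowest value and the median were 0 and the highest 3.11 CPM, and in SFH the lowest was 0, the median 3.54 and the highest 15.8 CPM. Only FH heifers 22 and 27 had counts of it, whereas 6 of 7 SFH heifers did, and the ranges overlapped below 3.11 CPM. The log2 fold change was 2.99 (standard error 1.47; edgeR quasi-likelihood test, adjusted p = 0.863). The exact two-sided permutation test of mean log2(TMM-normalized CPM + 0.5) gave p = 0.0251 (n = 7 per group) and an adjusted p of 0.544 over the 341 miRNAs. By that test 2 of the 6 miRNAs had an unadjusted p of at most 0.05, compared with 21 of the 341 (6.16%). Both reached a CPM of 1 in no more than the 7 heifers that the filter requires, most of them SFH heifers. They were thus tested only through the group in which they were higher, and the 2 of 6 is no result about the region.

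The other of these 2 miRNAs was bta-miR-432 of the group antisense to RTL1. Its lowest value and median were 0 and its highest 4.56 CPM in FH, compared with 0, 5.26 and 22.2 CPM in SFH. It had counts in FH heifers 24 and 27 and in 5 of 7 SFH heifers, of which heifer 30 was highest and heifers 23 and 28 had none. The log2 fold change was 2.90 (standard error 1.55; edgeR quasi-likelihood p = 0.0744, adjusted p = 0.890), with p = 0.0414 in the exact two-sided permutation test (n = 7 per group; adjusted p = 0.702). This p did not hold without single heifers. It was 0.0763 without any of FH heifers 20, 22, 25, 29 or 31, and 0.0903 to 0.103 without any of SFH heifers 17, 21, 26, 30 or 32.

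**Figure D4:**
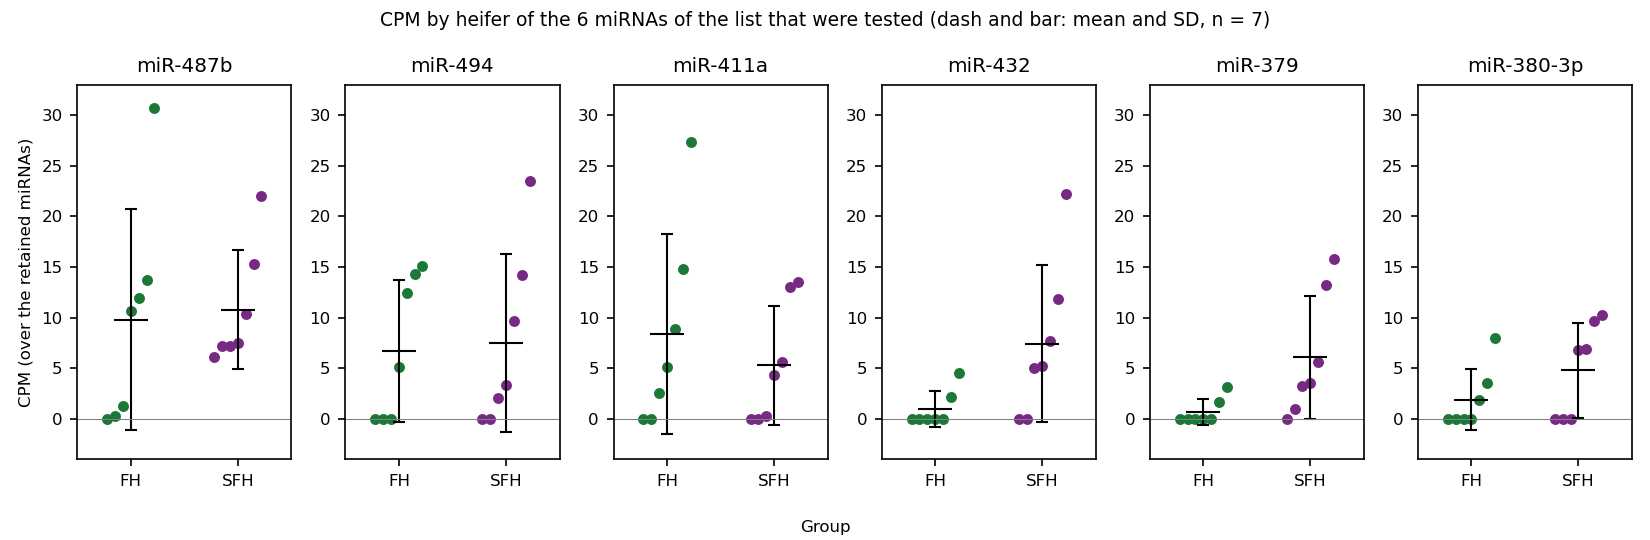
Points are the CPM of each heifer for the 6 miRNAs of the region that were tested, in FH and SFH, with a dash at the mean and a bar of 1 SD (n = 7 per group). For miR-379 and miR-432, 5 of 7 FH heifers are at 0 and the SFH heifers reach 15.8 and 22.2 CPM, while the groups of the other 4 miRNAs cover much the same range.

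bta-miR-487b was the most abundant miRNA of the region, with 9.78 ± 10.9 CPM on average in FH, compared with 10.8 ± 5.84 CPM for SFH (SD, n = 7 per group). FH heifers spread from 0 to 30.7 CPM (median 10.6) and SFH heifers from 6.06 to 22.0 CPM (median 7.51), so that the SFH range lay within that of FH. Its log2 fold change was 0.12 (standard error 1.03; edgeR quasi-likelihood p = 0.905), with p = 0.231 in the exact two-sided permutation test (n = 7 per group). The limma-voom log2 fold change was 1.66. The difference of mean log2 values on which the permutation test rests was larger, at 1.13, than the fold change fitted by edgeR. All 7 SFH heifers had counts, and FH heifers 29 and 31 had 0 and 1 count.

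bta-miR-494 had a median of 5.12 CPM in FH (0 to 15.1) and 3.38 CPM in SFH (0 to 23.4), with no count in 3 FH and 2 SFH heifers. Its log2 fold change in edgeR was 0.13 (standard error 1.37; exact two-sided permutation p = 0.843, n = 7 per group). bta-miR-411a was the 1 of the 6 with a fold change below 0. Its median was 5.13 CPM in FH (0 to 27.4) and 4.37 CPM in SFH (0 to 13.5), and the log2 fold change −0.64 (standard error 1.36; exact two-sided permutation p = 0.628, n = 7 per group), which became 0.02 without FH heifer 22. bta-miR-380-3p had a median of 0 in FH (highest 7.98 CPM) and 6.76 CPM in SFH (0 to 10.3), and its log2 fold change was 1.32 (standard error 1.54; exact two-sided permutation p = 0.347, n = 7 per group). These 4 miRNAs differed between the groups by less than their spread among heifers.

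Of the 10 miRNAs of the region with the highest mean CPM, 4 did not pass the filter and were not tested. bta-miR-382 had counts in 2 FH heifers and 5 SFH heifers (0.846 ± 2.14 and 4.99 ± 5.25 CPM), and so did bta-miR-127, one of the miRNAs that target RTL1 (1.09 ± 1.88 and 3.78 ± 6.003 CPM). bta-miR-655 was seen in 1 FH and 3 SFH heifers (1.69 ± 4.47 and 3.65 ± 5.23 CPM). bta-miR-381 was seen in 2 heifers of each group and was higher on average in FH (3.51 ± 6.77 and 0.618 ± 1.06 CPM; SD, n = 7 per group). The SD exceeded the mean in all 8 of these group values, and each range began at 0.

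Without the filter, all 23 names with counts could be fitted, and 7 of them (30.4%) passed the thresholds, compared with 126 of 614 miRNAs (20.5%). All 7 were higher in SFH, where 81 of the 614 (13.2%) were called in that direction. Each of the 7 had 0 counts in every FH heifer, counts in 1 or 2 SFH heifers and no more than 20 counts in total, and the smallest adjusted p-value was 0.142 (edgeR quasi-likelihood test, Benjamini-Hochberg). No fold change is given for them, since both groups were near the floor. The 614 include the 341 miRNAs that passed the filter and were not matched to the region for abundance. The differences between these shares are therefore no result about the region.

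Co-variation among heifers was also described, since neighbouring miRNAs of this region can be processed from a shared transcript. The 6 tested miRNAs form 15 pairs. The median Pearson's r of log2(TMM-normalized CPM + 0.5) over the 14 heifers was 0.28 (quartiles 0.16 and 0.32), and 13 of the 15 were above 0. Over all 57970 pairs of miRNAs tested the median was 0.01 (quartiles −0.22 and 0.24). Those pairs were not matched for abundance, and the 6 miRNAs are among the less abundant of those tested. By Spearman's rho the median of the 15 pairs was 0.20, and for r on deviations from the group means it was 0.19. Over all pairs both medians were 0.01. Without FH heifer 29 the median of the 15 pairs was 0.16. It was 0.28 in FH alone and 0.16 in SFH alone. None of the 15 pairs had a permutation p of at most 0.05 for r (100000 pairings), where 8.86% of all pairs did. With 15 pairs, a count of 0 is close to that share, and it is no result about these miRNAs.

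The pair with the highest r was bta-miR-379 and bta-miR-487b, with r = 0.46 (permutation p = 0.0994, adjusted p = 0.653 over all pairs) and Spearman's rho = 0.27 (permutation p = 0.354, adjusted p = 0.887). Its r was 0.55 in FH, 0.16 in SFH and 0.44 without SFH heifers 21 and 23, whose bta-miR-379 values lay farthest from its median. The neighbouring genes of bta-miR-379 and bta-miR-411a gave r = −0.06 (permutation p = 0.828, adjusted p = 0.971) and rho = −0.08 (permutation p = 0.784, adjusted p = 0.978), with 0.28 in FH, −0.15 in SFH and −0.05 without the same 2 heifers. Both had counts together in 6 heifers and were both at 0 in 2.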

How the data were processed

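Small RNA libraries (NEXTflex kit) of PWBC from 14 heifers were compared, 7 FH and 7 SFH, grouped by their GEO labels. The authors trimmed adapters with Cutadapt, aligned reads with miRDeep2 to ARS-UCD1.2 and to the cattle entries of miRBase, and deposited raw counts per mature miRNA and precursor, with no replicates pooled and no removal of PCR copies described. The authors also deposited CPM values from edgeR 3.28.1 for the 341 miRNAs retained, those that reached a CPM of 1 in 7 or more heifers. These equal the counts divided by the total over those miRNAs.

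The count table had 1207 lines for 1030 names, as a miRNA with several precursors is listed again. Each name was used once, by its line with the most counts. CPM was computed for all names over the same totals. Counts were tested with edgeR 4.0.16 (TMM, quasi-likelihood, SFH relative to FH, Benjamini-Hochberg over all miRNAs tested) in R 4.3.3. Thresholds followed the study's methods (an unadjusted p of at most 0.05 and a log2 fold change of 0.5 or more in either direction). Single miRNAs were also compared with an exact two-sided permutation test over 3432 arrangements (smallest possible p = 0.000583, n = 7 per group) of mean log2(TMM-normalized CPM + 0.5). Fold changes on that scale understate changes of low values. DESeq2 1.42.0, limma 3.58.1, other scalings, pseudocounts, filters and leaving out each heifer were alternatives. Correlations used scipy 1.17.1. The edgeR quasi-likelihood test was also tried on simulated counts. Library totals of 1754971 to 5468341 set a floor of 0.549 to 1.71 CPM per heifer. The labels give no sequencing batch.

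The miRNAs, marker lists and tests were chosen with earlier results of these data known. Named were the 10 miRNAs of the region with the highest mean CPM, any that passed the thresholds, the 5 tested with the largest absolute fold change, pairs among the 5 most abundant, the 5 miRNAs most correlated with the most abundant one, and other miRNAs placed between DLK1 and DIO3. Others are named to account for all 57 names.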

Additional observations from a re-analysis of the deposited data

Results flagged for a closer look

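In 4 of 24 groups of values looked at, 1 heifer lay apart from the other 6 by Dixon's criterion. Chance meets this criterion in about 1 of 20 groups of normally distributed values. Many values here were 0, and where all other heifers are at 0 a single heifer with counts always meets it. The 4 of 24 therefore cannot be set against that rate. For bta-miR-382 in FH it was heifer 24, with 5.70 CPM where the next heifer had 0.222 CPM. For bta-miR-655 in FH it was heifer 25, with 11.8 CPM where the other 6 had 0. For bta-miR-127 in SFH it was heifer 17, with 16.9 CPM where the next had 3.84 CPM. For bta-miR-381 in FH it was heifer 20, with 17.7 CPM where the next had 6.84 CPM. None of these 4 miRNAs passed the filter for the test between groups.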

How the results depend on the processing

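Of the 341 miRNAs, 13 passed the thresholds. The count was 23 with limma-voom, 126 without the CPM filter, 20 with the p-value threshold alone and 11 to 22 with single heifers left out. Of the DLK1-DIO3 miRNAs, 0 passed, compared with 1 with limma-voom, 7 without the filter and 0 to 1 with single heifers left out. bta-miR-379 passed without FH heifer 27 (log2 fold change 4.46) or SFH heifer 26 (3.21), and bta-miR-432 without FH heifer 24 (4.0). The CPM filter was not applied again when a heifer was left out. Without FH heifer 27 bta-miR-379 would have missed it, and without FH heifer 24 so would bta-miR-432. Each of these FH heifers was also 1 of only 2 in FH with counts of that miRNA, so leaving it out had to raise the fold change. SFH heifer 26 was the only SFH heifer without counts of bta-miR-379, so leaving it out had to raise that fold change as well. Leaving out FH heifer 24 gave the 22 calls and SFH heifer 26 gave 20.

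With single heifers left out, the log2 fold change was −1.09 to 0.0205 for bta-miR-411a (above 0 without FH heifer 22), −0.14 to 0.73 for bta-miR-487b and −0.54 to 0.44 for bta-miR-494, so their signs turned, as did the permutation difference of bta-miR-494 (−0.20 to 0.73). The cause was not tested. It was 2.53 to 4.46 for bta-miR-379, 2.28 to 4.0 for bta-miR-432 and 1.03 to 2.34 for bta-miR-380-3p. The difference in summed CPM was 17.0 to 29.4, in log2 summed CPM 0.41 to 1.46 and in miRNAs detected 2.88 to 4.95, and the median correlation 0.16 to 0.33. Under the other settings none of these 4 changed sign, but the difference in summed CPM was 13.5 with the deposited CPM table, which holds the 6 tested miRNAs only, and that in miRNAs detected was 2.14 when at least 10 counts were required. limma-voom gave bta-miR-487b a log2 fold change of 1.66, compared with 0.12 in edgeR.

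No paired analysis was possible because the heifer numbers are not shared between the groups. With a CPM of at least 1 required in all heifers, 0 of the DLK1-DIO3 miRNAs remained, so no fold change or correlation was computed. Depth limits any statement on the 34 names at 0 and on single values near 0.549 to 1.71 CPM.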

Other observations

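The miRNAs whose levels followed those of bta-miR-487b most closely over the 14 heifers were bta-miR-24, bta-miR-324, bta-miR-9-3p, bta-miR-2284v and bta-miR-499, none of which lies in the DLK1-DIO3 region. For bta-miR-24, Pearson's r was 0.74 (permutation p = 0.00478, adjusted p = 0.318 over all pairs) and Spearman's rho 0.24 (permutation p = 0.412, adjusted p = 0.906), with r = 0.86 in FH, −0.49 in SFH and 0.20 without FH heifers 29 and 31. That relation rests on these heifers, in which bta-miR-487b had 0 and 1 count. For bta-miR-324, r was 0.72 (permutation p = 0.00302, adjusted p = 0.289) and rho 0.67 (permutation p = 0.0103, adjusted p = 0.472), with 0.77 in FH, 0.37 in SFH and 0.55 without both heifers. For the other 3 miRNAs r was 0.67 to 0.68 with all heifers. Without both heifers it was 0.33 for bta-miR-9-3p, 0.56 for bta-miR-2284v and 0.09 for bta-miR-499. None of the 5 passed adjustment over all pairs.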
